A study of Rattus norvegicus with 17 samples.

Results

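Cultures of fetal rat gubernaculum given insulin-like 3 (Insl3) at 100 nM were compared with cultures given 10 nM, to find which genes moved further at the higher dose and which had already reached their level at the lower one. The 9 arrays compared, 6 at 100 nM and 3 at 10 nM, are those kept by the submitters from a series of 17. The other 8 arrays are 6 of cultures without hormone and 10 nM replicates 4 and 5. The 6 give the zero-dose level and also enter the estimate of spread used for every comparison, that between the doses included. The submitters set replicates 4 and 5 aside as outliers, and their values are given only for reference. All 3 groups were bulbs of gubernacula from male Long Evans fetuses of gestational day 17. Each replicate held 2 bulbs, kept for 24 h in medium without Insl3 and for a further 24 h with or without it. The medium of every group, controls included, contained 2% stripped serum and a supplement of insulin, transferrin and selenium, so no culture was free of insulin. The labels call the replicates biological but do not say which fetuses or litters the bulbs came from.

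Insl3 is a peptide hormone of fetal Leydig cells that acts on the gubernaculum through the receptor Rxfp2. The receptor couples to the stimulatory G protein and raises cyclic AMP, which activates protein kinase A and, through it, transcription factors that bind cyclic AMP response elements. In the fetus this signal makes the gubernaculum swell and thereby holds the testis near the groin. Rxfp2 and Insl3 were not analysed here. Of the 13 genes listed as mesenchyme markers, 9 were measured, and their mean log2 level lay between 12.19 and 12.59 in all 15 kept arrays, with collagen genes Col1a1 and Col3a1 and the filament gene Vim among the brightest.

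The values are log2 GCRMA signals. The labels and files used here name no base for the logarithm, and base 2 is taken from the method. Of 18938 probe sets tested, covering 10665 genes, each gene is represented by its probe set of highest mean signal. A change was called when limma's moderated test gave a Benjamini-Hochberg adjusted p under 0.05 over all 18938 probe sets. Kept arrays correlated with each other at 0.978 to 0.996. The labels give an RNA integrity number of 10 for every kept array except 10 nM replicates 1 and 2, for which they give none. Within groups, the first principal component (27.3% of the variance) separated replicates 1, 2 and 6 from 3, 4 and 5 in the control and the 100 nM cultures. The kept 10 nM replicates 1, 2 and 3 scored -1.5, -7.4 and 9 on it, replicate 3 again apart from 1 and 2.

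Between the doses 83 of 10665 genes (0.778%) differed, 67 higher at 100 nM (0.628%) and 16 lower (0.15%). Without adjustment, 2324 probe sets had p under 0.05, and 271 (1.43%) passed after it, 1.24% higher and 0.195% lower at 100 nM. The arrays of the doses did not overlap for 291 genes higher at 100 nM (2.73%) and for 426 lower (3.99%), most of which were not called. Against control, by contrast, 12.1% of genes were called at 100 nM (8.15% higher and 3.98% lower) and 8.67% at 10 nM (5.54% higher and 3.13% lower). The calls between the doses rest on few arrays, and on a fit that includes the controls. With only the 9 Insl3 arrays fitted, 3 probe sets were called, 2 of them among the 271. Of the 41 named genes with a call, 1 kept it in that fit. With 10 nM replicate 3 left out, 3 of the 271 probe sets were called, with 100 nM replicate 5 left out the count was 619, and in 11 of the 15 fits that leave out 1 array it moved by more than 1.5 times. With the division of replicates 1, 2 and 6 from 3, 4 and 5 as a term it was 531, all 271 among them. Within replicates 1, 2 and 6 alone it was 134, with 70 of the 271 among them. Nr4a1 alone among the 41 named genes with a call kept it in all 15 fits that leave out 1 array and in the 12 other alternatives in which it was tested, the stricter filter having left it out, so the remaining calls are given below with the highest adjusted p reached when 1 array was left out.

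Genes were sorted by 2 quantities, the mean response of all 9 Insl3 arrays against control, and the difference between the doses. Their estimates are independent when the spread is equal between groups, and both tests use the same pooled estimate of spread. The median SD over the tested probe sets was 0.2 in control, 0.11 at 10 nM and 0.18 at 100 nM. A gene is termed graded where both were called with the same sign, and further from control at 10 nM where they were called with opposite signs. It is termed at plateau where the response was at least 2-fold, the doses did not differ by the test, and the 95% interval of their difference lay inside a 1.5-fold change either way (0.585 on the log2 scale). Responders of at least 2-fold that met none of these rules are unresolved. Among genes, 12 were graded (0.113% of those tested), 33 were further from control at 10 nM (0.309%), 25 were at plateau (0.234%) and 152 were unresolved (1.43%). A further 38 genes (0.356%) differed between doses without a called response.

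**Figure D1:**
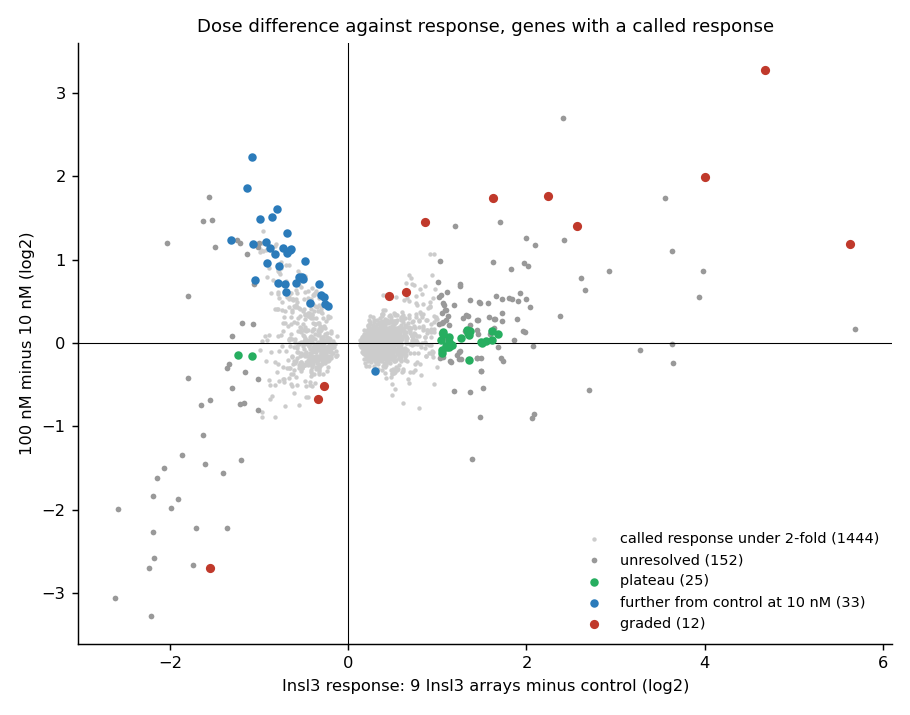
Each point is 1 of the 1666 genes with a called Insl3 response (15.6% of those tested, 10.6% higher and 5.04% lower). The horizontal axis is the mean of the 9 Insl3 arrays minus the control mean and the vertical axis is the 100 nM mean minus the 10 nM mean (both log2). Graded genes lie in the upper right and lower left, 32 of the 33 genes further from control at 10 nM lie in the upper left, and plateau genes lie close to the horizontal line.

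The 9 graded genes that rose were S100g, Nppc, Twist2, Nr4a1, Prkce, Foxl2, Gda, Fst and Irs2, and the 3 that fell were Epb42, Cyb561a3 and Cln8. Only 4 of the 12 graded genes were also called at 10 nM against control, namely Gda, Nppc, Foxl2 and S100g, and these 4 showed a step at each dose. The other 5 risers, Nr4a1, Twist2, Prkce, Fst and Irs2, were called at 100 nM against control and not at 10 nM, with adjusted p-values at 10 nM between 0.0927 for Twist2 and 0.808 for Prkce. The difference between doses itself was called for each of them. The rule for graded sets no condition on 10 nM against control. The 10 nM minus control difference was 0.243 for Epb42, 0.104 for Cyb561a3, 0.06 for Cln8 and -0.106 for Prkce. These are opposite in sign to the responses of these genes, and none was called, so graded here does not mean a partial change at 10 nM.

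Nppc encodes the precursor of C-type natriuretic peptide, a ligand of a receptor that makes cyclic GMP. Its log2 signal was 3.61 to 3.77 in the 6 control arrays with a median of 3.65, 6.68, 6.53 and 5.83 in the 10 nM arrays, and 7.76, 8.22 and 9.07 as lowest, median and highest at 100 nM. The 3 groups did not overlap. The 100 nM mean was 1.99 ± 0.25 above the 10 nM mean (SE from the fit of all 3 groups, n = 6 and 3 arrays compared). This was a 3.97-fold difference (limma adjusted p = 0.00518), on top of a 6.39-fold difference between 10 nM and control. Without 10 nM replicate 3 the adjusted p was 0.0518. The call was also lost in 2 of 13 other alternatives, with only the Insl3 arrays and with only replicates 1, 2 and 6. The set-aside 10 nM arrays read 4.86 and 8.03, the second of them within the 100 nM range.

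Gda encodes guanine deaminase, which converts guanine to xanthine. It stood at 2.63 to 3.00 in the controls (median 2.72), at 7.38, 7.89 and 7.49 at 10 nM, and at 8.19, 8.84 and 9.35 (lowest, median, highest) at 100 nM. Most of its response on the log2 scale was present at 10 nM, where it was 28.6-fold above control, and the step from 10 to 100 nM was 2.28-fold (1.19 ± 0.21, adjusted p = 0.0229, up to 0.176 with 1 array left out, the call being lost without 10 nM replicate 1 or 3). A second Gda probe set gave 2.24, 6.07 and 6.29 as means of control, 10 nM and 100 nM, and its dose difference of 0.23 ± 0.18 was not called (adjusted p = 0.687). The grading of Gda was therefore seen by 1 of its 2 probe sets. Of 13 other alternatives, 7 lost the call of that probe set.

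Foxl2 encodes a forkhead transcription factor known from ovarian granulosa cells and the eyelid. Its control arrays lay between 3.84 and 4.25 (median 3.94), the 10 nM arrays at 6.22, 5.29 and 5.32, and the 100 nM arrays at 6.30, 7.20 and 7.43 (lowest, median, highest). The groups did not overlap, although 10 nM replicate 1 came just below the lowest 100 nM array. The step was 2.65-fold (1.40 ± 0.24, adjusted p = 0.0195, up to 0.176 with 1 array left out). The call was lost without 10 nM replicate 2 or 3 or 100 nM replicate 2. It was also lost in 7 of 13 other alternatives.

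S100g encodes calbindin-D9k, a vitamin D-responsive calcium-binding protein. It was near the floor of the scale in the controls (2.12 to 2.72), scattered at 10 nM with 6.83, 5.20 and 2.42, and at 6.58, 8.17 and 9.14 (lowest, median, highest) at 100 nM. The 10 nM and 100 nM arrays overlapped, and 10 nM replicate 3 was inside the control range. The mean difference was 3.27 ± 0.71 (adjusted p = 0.0410), and 11 of the 15 fits with 1 array left out lost the call, with adjusted p up to 0.235. Of 13 other alternatives, 7 lost it.

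Nr4a1 encodes an orphan nuclear receptor that is an immediate early gene of cyclic AMP and growth factor signals. It read 2.51 to 3.15 in the controls (median 2.76), 3.24, 3.30 and 3.22 at 10 nM, and 4.70, 4.86 and 5.52 (lowest, median, highest) at 100 nM. The 10 nM arrays were all just above the highest control, and every 100 nM array was more than 1 log2 unit above every 10 nM array. The 100 nM mean was 3.33-fold above the 10 nM mean (1.73 ± 0.18, adjusted p = 0.00110), whereas 10 nM against control was 1.38-fold and not called (adjusted p = 0.119). Over the 15 fits with 1 array left out the difference stayed between 1.63 and 1.79 with adjusted p of at most 0.0163.

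The promoter of Nr4a1 is shown because this gene gave the most stable dose difference and because cyclic AMP acts through a known motif. The 250 bases before the start of the gene (RefSeq, assembly GRCr8, chr7:134259888-134260137, plus strand) read as follows, with each copy of the 5-letter motif TGACG or its reverse complement CGTCA in capitals.
Nr4a1: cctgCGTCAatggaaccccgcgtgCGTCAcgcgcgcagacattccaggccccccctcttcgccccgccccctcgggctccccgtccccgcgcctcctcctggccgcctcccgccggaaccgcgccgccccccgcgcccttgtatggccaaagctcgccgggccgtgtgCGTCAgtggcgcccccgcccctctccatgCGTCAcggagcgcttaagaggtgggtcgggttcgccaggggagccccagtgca
The motif occurred 4 times, its first base at positions -246, -226, -82 and -53 from the start, and the full 8-letter element TGACGTCA, searched on both strands, did not occur. Among the 8875 tested genes with a promoter in the table, 32.6% held the 5-letter motif at least once, 0.485% at least 4 times, and 3.16% held the 8-letter element, all in windows of 300 bases. Of the 12 graded genes 7 had a promoter in the table, and Nr4a1 was the 1 that held the motif, as against 3 of 22 plateau genes and 9 of 24 genes further from control at 10 nM. The same windows of Nppc and Gda held no match, and Nppc is given for comparison (minus strand, chr9:94772187-94772436).
Nppc: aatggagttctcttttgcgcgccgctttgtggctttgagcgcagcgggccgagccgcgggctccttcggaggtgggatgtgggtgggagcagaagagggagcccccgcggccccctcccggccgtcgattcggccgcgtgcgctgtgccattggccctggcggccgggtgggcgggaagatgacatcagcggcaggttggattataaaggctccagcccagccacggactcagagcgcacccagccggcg
These counts describe letters in the windows and were not tied to binding in these cultures.

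Prkce encodes protein kinase C epsilon, a lipid-activated signalling kinase. Its control arrays lay between 6.52 and 6.96 and its 10 nM arrays at 6.96, 6.75 and 6.11, while the 100 nM arrays lay at 7.47, 8.07 and 8.53 (lowest, median, highest). The 10 nM and control arrays overlapped and all 100 nM arrays were higher. The step was 2.73-fold (1.45 ± 0.21, adjusted p = 0.0146) and, of the fits with 1 array left out, was lost in that without 10 nM replicate 3 (adjusted p = 0.142). It was also lost when only the Insl3 arrays were fitted and when the set-aside arrays were added (adjusted p up to 0.115).

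Twist2 encodes a basic helix-loop-helix factor of embryonic mesenchyme. It read 4.82 to 5.19 in the controls, 6.64, 5.71 and 5.74 at 10 nM, and 6.31, 7.95 and 8.68 (lowest, median, highest) at 100 nM. The dose groups overlapped through 1 low array at 100 nM. The step was 3.38-fold (1.76 ± 0.38, adjusted p = 0.0400, up to 0.255 with 1 array left out), and 11 of the 15 such fits lost the call. Of 13 other alternatives, 7 lost it. The set-aside arrays, at 5.27 and 4.86, lay below all 3 kept 10 nM arrays.

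Fst and Irs2 showed small steps with narrow spreads. Fst encodes follistatin, a secreted protein that binds and blocks activins, and read 8.79 to 9.24 in controls, 9.28, 9.17 and 9.18 at 10 nM, and 9.68, 9.78 and 10.04 (lowest, median, highest) at 100 nM. Its step was 1.53-fold (0.61 ± 0.10, adjusted p = 0.0182), which did not hold when 10 nM replicate 2 or 3 was dropped (highest adjusted p 0.152). Of 13 other alternatives, 6 lost the call. The other Fst probe set gave 0.45 ± 0.16, not called (adjusted p = 0.214). Irs2 encodes an adaptor of the insulin and insulin-like growth factor receptors, and read 8.09 to 8.36 in controls, 8.13, 8.42 and 8.25 at 10 nM, and 8.67, 8.84 and 8.92 (lowest, median, highest) at 100 nM. Its step was 1.47-fold (0.56 ± 0.08, adjusted p = 0.0152), lost without 10 nM replicate 3 (adjusted p = 0.142) and in 3 of 13 other alternatives (adjusted p up to 0.191). For both genes the 100 nM arrays were all above the others, and the 10 nM arrays lay within or next to the control range.

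**Figure D2:**
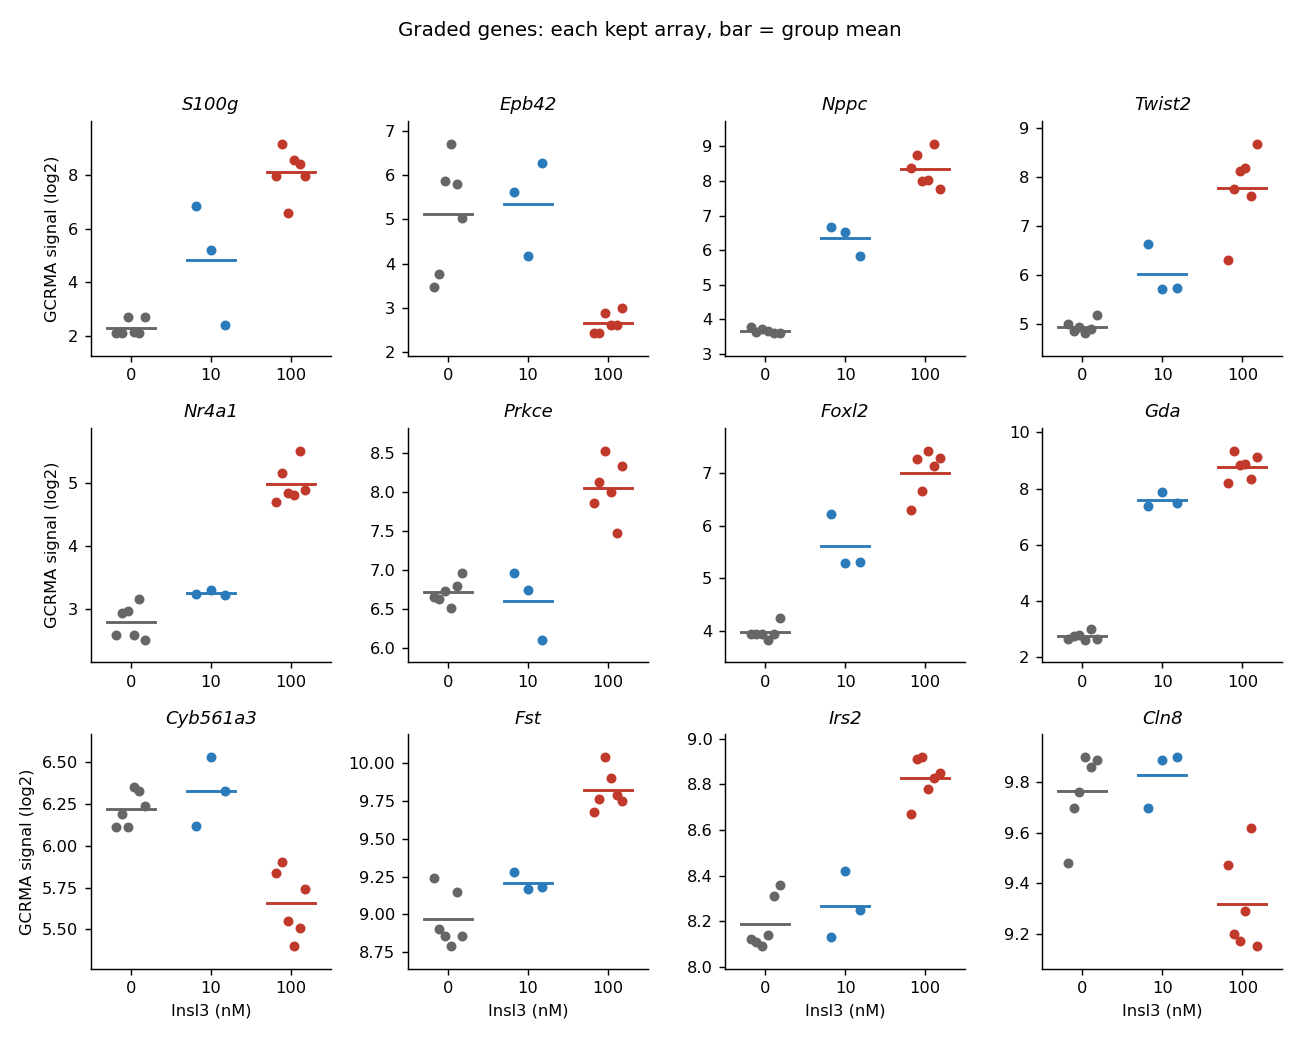
Log2 GCRMA signal of the 12 graded genes in each kept array at 0, 10 and 100 nM Insl3 (6, 3 and 6 arrays), with the bar at the group mean. S100g, Nppc, Foxl2 and Gda step up at both doses by their means, whereas Nr4a1, Prkce, Fst and Irs2 are near control at 10 nM, and Epb42, Cyb561a3 and Cln8 are lower at 100 nM only.

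A second probe set gave called dose differences in genes whose brightest probe set was not called, and these were picked out after their values were seen. For Kitlg, which encodes the ligand of the receptor Kit, a dim probe set read 3.20 to 3.46 in controls, 3.51, 3.56 and 3.90 at 10 nM, and 5.14, 5.69 and 6.41 (lowest, median, highest) at 100 nM, a difference of 2.13 ± 0.21 (adjusted p = 0.00110). The brightest Kitlg probe set had means of 7.72, 9.88 and 10.21 in control, 10 nM and 100 nM, and its dose difference of 0.32 was not called (adjusted p = 0.557). The dim probe set was close to its control level at 10 nM and the bright one had made most of its change there. Likewise the dimmer probe sets of Nr4a2, a relative of Nr4a1, and of the ligand gene Wnt2 were graded, with differences of 1.81 and 1.16 (adjusted p = 0.0496 and 0.0246), while the brightest ones, at 0.97 and 0.55, were not called (adjusted p = 0.312 and 0.472). In all, 9 of the 26 graded probe sets (0.137% of those tested) were of this kind, and in none of the 9 genes was the brightest probe set called between the doses.

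The 33 genes further from control at 10 nM were nearly all low at 10 nM and nearer to control at 100 nM. Of them 32 lay below control at 10 nM, the exception being the integrin subunit gene Itgb1, which was higher at 10 nM (means 12.63, 13.15 and 12.81 in control, 10 nM and 100 nM). All 33 were called at 10 nM against control and 8 at 100 nM against control. Their median difference from control was -1.39 at 10 nM and -0.34 at 100 nM. The dose difference entered the rule, so these medians describe the genes and test nothing.

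The largest of these dips was in Pi4k2a, a kinase that makes phosphatidylinositol 4-phosphate on Golgi and endosome membranes. It read 6.11 to 6.91 in controls (median 6.58), 4.71, 3.37 and 3.85 at 10 nM, and 4.84, 6.71 and 6.89 (lowest, median, highest) at 100 nM. No 10 nM array reached the lowest 100 nM array, and the 100 nM arrays overlapped the controls. The 100 nM mean was 4.68-fold above the 10 nM mean (2.23 ± 0.46, adjusted p = 0.0355, up to 0.220 with 1 array left out, 8 of 15 such fits losing the call).

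Mgll, which encodes monoacylglycerol lipase, read 5.63 to 6.20 in controls, 3.49, 3.96 and 2.89 at 10 nM and 4.11, 5.55 and 5.99 (lowest, median, highest) at 100 nM. Its dose difference was 3.62-fold (1.85 ± 0.34, adjusted p = 0.0233, up to 0.191 with 1 array left out, lost without 10 nM replicate 1 or 3 or 100 nM replicate 2). Sema3a, a secreted repellent of axons, read 4.08 to 5.31 in controls, 3.17, 3.37 and 2.44 at 10 nM, and 4.13, 4.61 and 5.33 (lowest, median, highest) at 100 nM, a 3.05-fold difference between doses (1.61 ± 0.30, adjusted p = 0.0233, lost in the same 3 fits). For both genes control and 100 nM arrays overlapped and the 10 nM arrays lay below all of them. Mgll had 2 dimmer probe sets whose dose differences, 0.13 and 0.15, were not called.

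Lrp6, a co-receptor of Wnt ligands, read 7.85 to 8.69 in controls, 6.68, 6.67 and 5.98 at 10 nM, and 7.09, 8.01 and 8.95 (lowest, median, highest) at 100 nM. Its 2.84-fold difference (1.51 ± 0.33, adjusted p = 0.0412) was lost in 11 of 15 fits with 1 array left out, with adjusted p up to 0.282. Rps6ka5, a kinase of the cyclic AMP response factor Creb1 and of histone H3, read 7.07 to 7.61 in controls, 6.07, 6.03 and 5.61 at 10 nM, and 6.78, 6.96 and 7.61 (lowest, median, highest) at 100 nM. Its 2.21-fold difference (1.14 ± 0.17, adjusted p = 0.0150) was lost, of the fits with 1 array left out, in that without 10 nM replicate 3 (adjusted p = 0.146), as were those of the lysosomal glutamine transporter gene Slc38a7 (1.19 ± 0.19, adjusted p = 0.0169) and of Ralgps2 (1.21 ± 0.20, adjusted p = 0.0182), an exchange factor for Ral. Of 13 other alternatives, 2 lost the call of Rps6ka5, 5 that of Slc38a7 and 4 that of Ralgps2, all 3 with the set-aside arrays added. A second Rps6ka5 probe set showed no dip, with means of 6.26, 6.32 and 6.31 in control, 10 nM and 100 nM.

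The other genes named in this class by the size of their difference were Tbc1d12 (1.49), the synaptic vesicle gene Sv2b (1.32), Pnma8b (1.24), the calcium-binding protein gene Cib2 (1.13) and Gemin5 (1.12), a subunit of the complex that assembles splicing particles. Their 10 nM arrays did not overlap the controls. Pnma8b was also lower than control at 100 nM (adjusted p = 0.00933) and its second probe set was called in the same class, while a second Gemin5 probe set was not called. All 5 lost the call without 10 nM replicate 3, with adjusted p between 0.191 and 0.289 at their highest when 1 array was left out. Sox6, a factor of cartilage and muscle development (0.72 ± 0.15, adjusted p = 0.0400), and Loxl2, an enzyme that crosslinks collagen (1.08 ± 0.20, adjusted p = 0.0244), belong to the same class. Both calls were lost without 10 nM replicate 3, with adjusted p up to 0.269 and 0.200 when 1 array was left out.

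**Figure D3:**
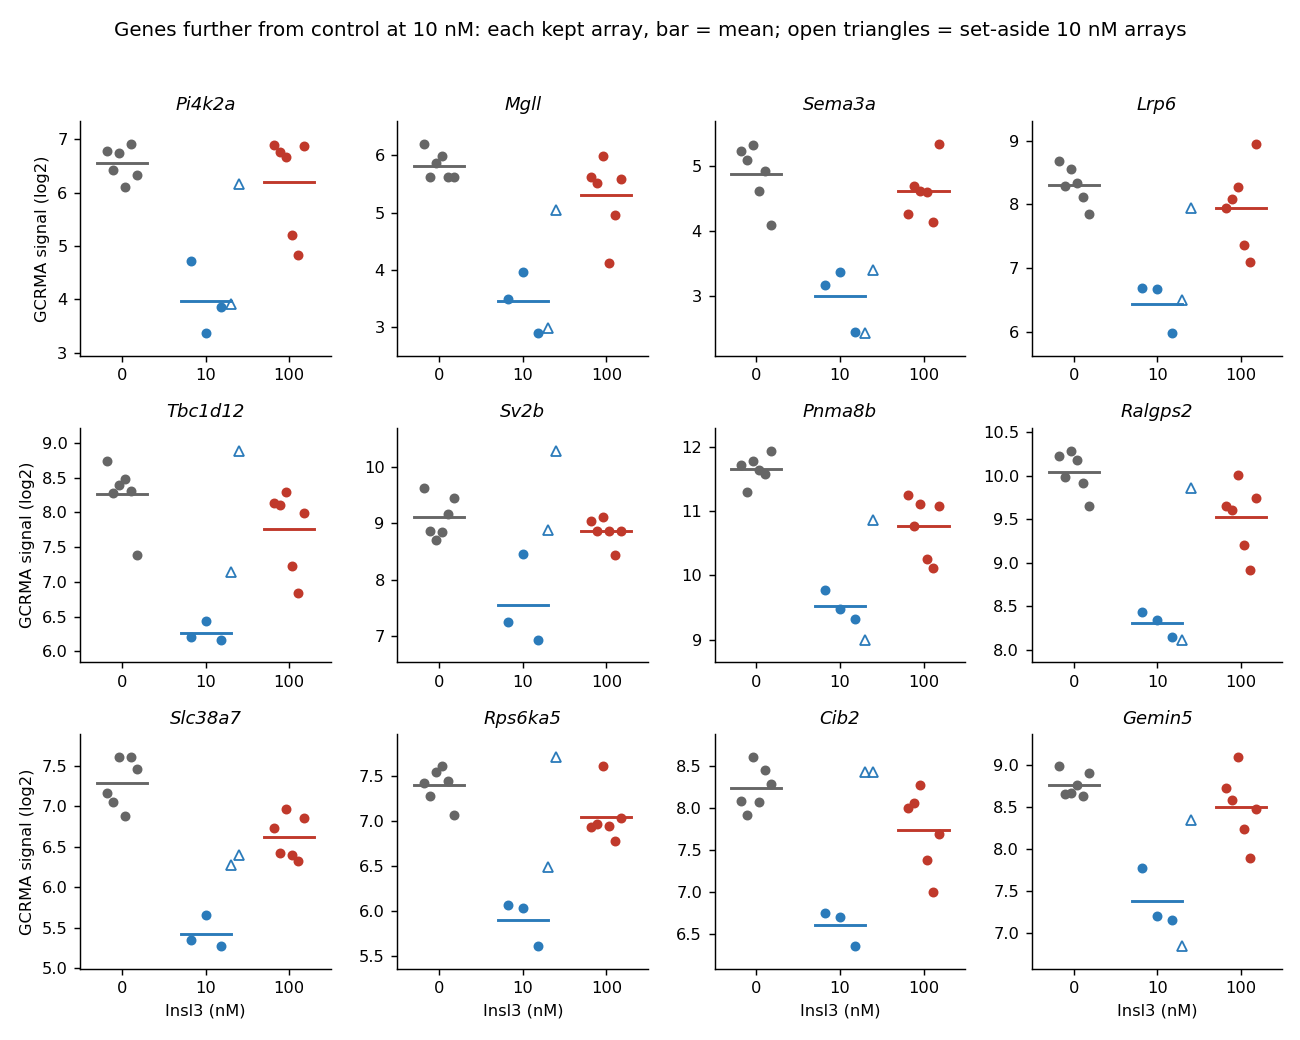
Log2 GCRMA signal in each kept array at 0, 10 and 100 nM Insl3 for the 12 genes of this class with the largest dose difference; bars are group means and open triangles are the 2 set-aside 10 nM arrays. The 3 kept 10 nM arrays lie below every control array in all 12 genes, and the 2 set-aside arrays often differ from each other, as for Lrp6 at 6.50 and 7.94.

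Values of single arrays and of RNA measures stood beside this class as follows. Over its 32 low genes the median difference from the control mean was -1.24, -1.28 and -1.57 in the 3 kept 10 nM arrays, -1.66 and -0.28 in the 2 set-aside arrays, and between -0.86 and -0.01 in the 100 nM arrays. The labelled cRNA yield was 64.16, 62.45 and 48.6 µg for kept 10 nM replicates 1, 2 and 3, and 25.66 and 33.68 µg for the set-aside arrays. It was 50.3 to 102.69 µg in controls and 59.02 to 77.89 µg at 100 nM. Of the 15 kept arrays, 10 nM replicate 3 had the lowest yield and the lowest median of this class, -1.57. The 3′ minus 5′ signal of the GAPDH control probe sets was 0.07 to 0.14 at 10 nM, -0.02 to 0.16 in controls and 0.03 to 0.15 at 100 nM. That of beta-actin was 0.91 to 1.06 at 10 nM, 0.37 to 1.08 in controls and 0.87 to 1.35 at 100 nM. Hexokinase read 0.58 in all 3 kept 10 nM arrays, 0.53 to 1.03 in controls and 0.58 to 1.15 at 100 nM. The part of RNA quality in the dip was not tested beyond these values.

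The probe sets of this class were seldom the brightest of their gene. Of the 158 probe sets (0.834% of those tested), 33 (20.9%) were the brightest of their gene, 99 (62.7%) were dimmer probe sets of a gene with several, and 26 (16.5%) had no single gene, whereas among all 18938 tested the shares were 56.3%, 20.5% and 23.2%. The 99 dimmer probe sets belonged to 90 genes and had a median of -1.47 at 10 nM against control, while the brightest probe sets of the same genes had a median of 0.01, and 11 of the 90 were called lower at 10 nM. Msi2, an RNA-binding protein gene picked out after its values were seen, is an example. Its dimmer probe set had means of 8.72, 5.49 and 7.98 in control, 10 nM and 100 nM (adjusted p between doses = 0.0239) and its brightest one had 12.29, 12.15 and 12.21 (adjusted p = 0.909). Of the 1079 probe sets called lower at 10 nM against control (5.7% of those tested), 48.7% were dimmer ones, as against 225 of the 832 called lower at 100 nM (4.39%) and 99 (10.7%) of the 925 called higher at 10 nM (4.88%). The median control level was 8.73 for the dimmer and 10.32 for the brightest probe sets of these genes. Which transcript part each probe set covers was not analysed here.

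**Figure D4:**
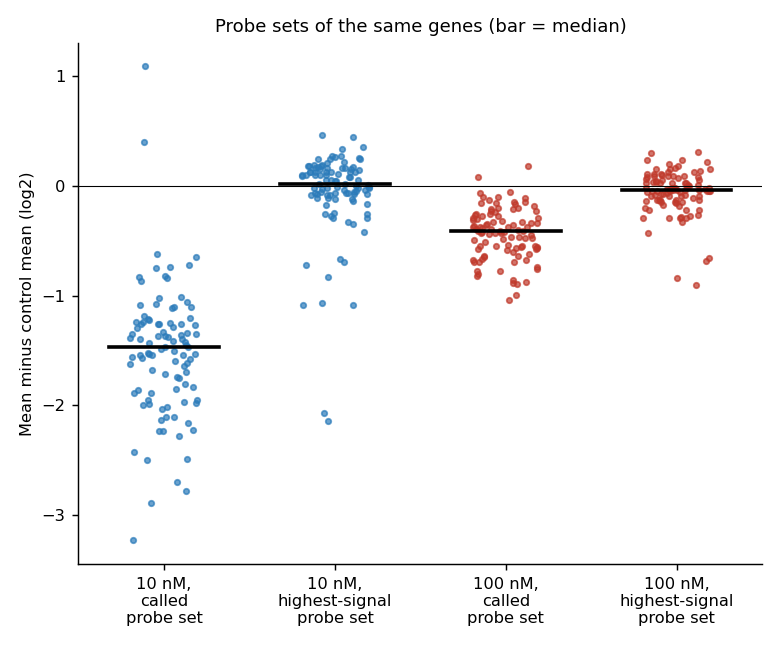
Difference from the control mean (log2) at 10 nM and at 100 nM for the 99 dimmer probe sets called further from control at 10 nM and for the brightest probe set of the same genes, with 1 point a probe set and the bar at the median. The called probe sets centre on -1.47 at 10 nM, and the brightest probe sets of the same genes centre on 0.01.

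Among the 16 genes lower at 100 nM than at 10 nM, the largest differences were in Dedd2, a death effector domain gene (-3.16 ± 0.58, adjusted p = 0.0233), Creg1, a lysosomal glycoprotein gene (-2.78 ± 0.47, adjusted p = 0.0182), Epb42, a protein of the red cell membrane skeleton (-2.69 ± 0.62, adjusted p = 0.0487), and Lyl1, a transcription factor of blood progenitors (-2.59 ± 0.55, adjusted p = 0.0386). Creg1 read 10.63 to 12.06 in controls, 12.51, 11.80 and 13.05 at 10 nM, and 8.51, 9.74 and 10.87 (lowest, median, highest) at 100 nM. Epb42 read 3.48 to 6.70 in controls, 5.61, 4.17 and 6.28 at 10 nM, and 2.43, 2.60 and 2.99 (lowest, median, highest) at 100 nM. For both genes no 100 nM array reached a 10 nM array, the 10 nM arrays overlapped the controls, and the controls were widely spread. All 4 calls were lost without 10 nM replicate 3, with adjusted p up to 0.315 for Epb42 when 1 array was left out.

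Red cell markers moved with these falls. All 17 measured erythroid markers had a lower mean at 100 nM than at 10 nM, with a median of -1.97, as against -0.03 over all genes tested, but only Epb42 among them was called. The list includes genes that earlier results of these data had named. The mean log2 level of the 17 markers was 7.32 to 9.85 in controls, 7.40 to 8.97 in the kept 10 nM arrays, 9.46 to 10.64 in the set-aside arrays and 5.57 to 8.19 at 100 nM. None of the defining markers was at the floor except Gata1 (2.60, 2.13 and 2.11 as means of control, 10 nM and 100 nM). Fewer red cells in a culture and less RNA per cell cannot be told apart in these bulk samples. Of the 8 measured granulocyte and mast cell markers none was called, with a median of -1.30. At an unadjusted p under 0.05 there were 4, beside 2324 of all 18938 probe sets tested. The eosinophil granule gene Prg2 differed by -3.97 (adjusted p = 0.0518) and S100a9, a calcium-binding protein of neutrophils, by -3.60 (adjusted p = 0.169). All 18 measured macrophage and leukocyte markers also had a lower mean at 100 nM than at 10 nM, from -1.84 for Cd52 to -0.01 for Coro1a with a median of -0.28, and none was called (5 at an unadjusted p under 0.05). Against control, 5 of the 18 were lower at 100 nM and none at 10 nM, beside 3.98% and 3.13% of all genes. These 2 counts are not a difference between doses. The mean log2 level of the 18 markers was 9.45 to 10.00 in controls and 9.25 to 9.81 in the kept 10 nM arrays. It was 9.04 to 9.76 in the set-aside arrays and 8.86 to 9.66 at 100 nM. The part of macrophages and leukocytes in the falls was not tested. With the mean erythroid level as a covariate, 86 probe sets were called between doses in place of 271, and 43 of the 86 were among the 271.

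Dedd2, Creg1 and Lyl1 are on none of these marker lists. Their calls were lost with the erythroid covariate, as was that of Epb42, which is itself 1 of the markers averaged. Of the 12 largest falls, only Sgk1 and Cyb561a3 kept the call in that fit, in which 31 of all 41 named calls were lost. The part of red cells in these falls was not tested. Beside Dedd2, Creg1, Epb42 and Lyl1, the other 8 of the 12 largest falls were smaller. Sgk1, a kinase gene induced by glucocorticoids, read 10.14 to 10.64 in controls, 10.57, 10.64 and 10.77 at 10 nM, and 9.35, 9.78 and 10.24 (lowest, median, highest) at 100 nM, a difference of -0.87 ± 0.19 (adjusted p = 0.0405, up to 0.251 with 1 array left out, 10 of 15 such fits losing the call). Cyb561a3, a lysosomal member of the cytochrome b561 family, read 6.11 to 6.35 in controls, 6.12, 6.53 and 6.33 at 10 nM, and 5.40, 5.65 and 5.90 (lowest, median, highest) at 100 nM. Its difference of -0.67 ± 0.12 (adjusted p = 0.0200) did not hold when 10 nM replicate 2 or 3 was dropped (highest adjusted p 0.154). The groups of Cyb561a3 at 10 and 100 nM did not overlap, and control and 10 nM did. Cln8, a carrier of lysosomal enzymes out of the endoplasmic reticulum (-0.51), the ferritin receptor gene Ncoa4 (-0.51), the amino acid transporter subunit Slc3a2 (-0.53), Ranbp10 (-0.85), Tuba4a (-0.49) and Ptbp3 (-0.36) made up the rest of them. All 6 lost the call without 10 nM replicate 3, with adjusted p between 0.182 and 0.307 at their highest when 1 array was left out.

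By the rule and in the kept arrays, the plateau genes had made their whole change, within the margin, at 10 nM. Of the 25 genes 23 were above control and 2 below, and the median width of the interval to either side of the difference was 0.40. The median difference from control of the 23 risers was 1.23, 1.32 and 1.21 in the 3 kept 10 nM arrays and 1.10 to 1.42 in the 100 nM arrays, and it was lower in the set-aside arrays, at 0.55 and 0.95.

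Among the receptors at plateau, Agtr2 encodes the type 2 receptor of angiotensin II. It read 12.46 to 12.80 in controls, 14.06, 13.84 and 13.82 at 10 nM, and 13.77, 14.08 and 14.20 (lowest, median, highest) at 100 nM. It was 2.42-fold above control at 10 nM and 2.67-fold at 100 nM, and the dose difference of 0.14 had an interval from -0.07 to 0.35. Ngfr, the p75 receptor of neurotrophins, read 8.78 to 9.61 in controls, 10.31, 10.57 and 10.51 at 10 nM, and 10.28, 10.57 and 10.98 (lowest, median, highest) at 100 nM, with an interval of the dose difference from -0.27 to 0.51. Tnfrsf21, a death receptor of the same superfamily, had an interval from -0.24 to 0.55. In these 3 genes the kept arrays of the doses overlapped and all lay above the controls. The set-aside arrays of Ngfr read 9.19 and 9.48, within its control range, while those of Agtr2 and Tnfrsf21 lay above their controls.

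Among ligands and matrix genes, Wnt9a read 6.53 to 7.01 in controls, 8.18, 8.48 and 8.33 at 10 nM, and 7.78, 8.53 and 8.67 (lowest, median, highest) at 100 nM, with a dose difference of 0.00 and an interval from -0.43 to 0.44. Col7a1, the collagen of anchoring fibrils, had means of 5.16, 6.64 and 6.66 in control, 10 nM and 100 nM, with an interval from -0.36 to 0.39. Tmem100, a membrane protein gene of the vascular bone morphogenetic protein response, had the largest response of the class, with 10.12 to 10.95 in controls, 12.02, 12.22 and 12.20 at 10 nM, and 11.76, 12.32 and 12.49 (lowest, median, highest) at 100 nM. Its interval ran from -0.27 to 0.48. The doses overlapped for all 3 genes.

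Egln3, an oxygen-dependent prolyl hydroxylase (interval -0.46 to 0.54), the choline transporter gene Slc44a1 (-0.45 to 0.04), the calcium channel regulator gene Cbarp (-0.48 to 0.52), Tmem132c (-0.15 to 0.44), the adaptor subunit gene Ap1s3 (-0.32 to 0.51) and the actin-associated Rai14 (-0.45 to 0.57) were the other plateau genes of largest response. The set-aside arrays of Rai14 read 8.50 and 9.34, neither above its highest control of 9.83. A second Rai14 probe set had means of 3.13, 3.98 and 3.46 in control, 10 nM and 100 nM and was not at plateau. Both other probe sets of Slc44a1 were at plateau, and the second ones of Agtr2, Tmem132c and Tnfrsf21 were unresolved. The regulatory subunit gene of protein kinase A, Prkar2b, was also at plateau, with a mean of 10.12 at 10 nM and 10.08 at 100 nM. The 2 plateau genes below control were Bend5, with means of 8.76, 7.61 and 7.47, and Gdf10, a ligand of the transforming growth factor beta family, with means of 10.32, 9.34 and 9.18. At the edge of the margin, the interval of Rab6b reached 0.58 and that of Rai14 0.57, while the interval of Cpe, just outside, reached 0.61. With a narrower margin 1 probe set was at plateau in place of 39 (0.206%), and with a margin of 2-fold 143 were. Membership also depended on the arrays and settings of the fit. Over the alternative fits, Rai14 left the class in 18, Egln3 in 12, Tnfrsf21 in 11, and Wnt9a and Cbarp in 8 each. Ngfr and Ap1s3 left it in 6 each, Tmem100 in 5, Col7a1 and Tmem132c in 4 each, Slc44a1 in 1 and Agtr2 in none.

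**Figure D5:**
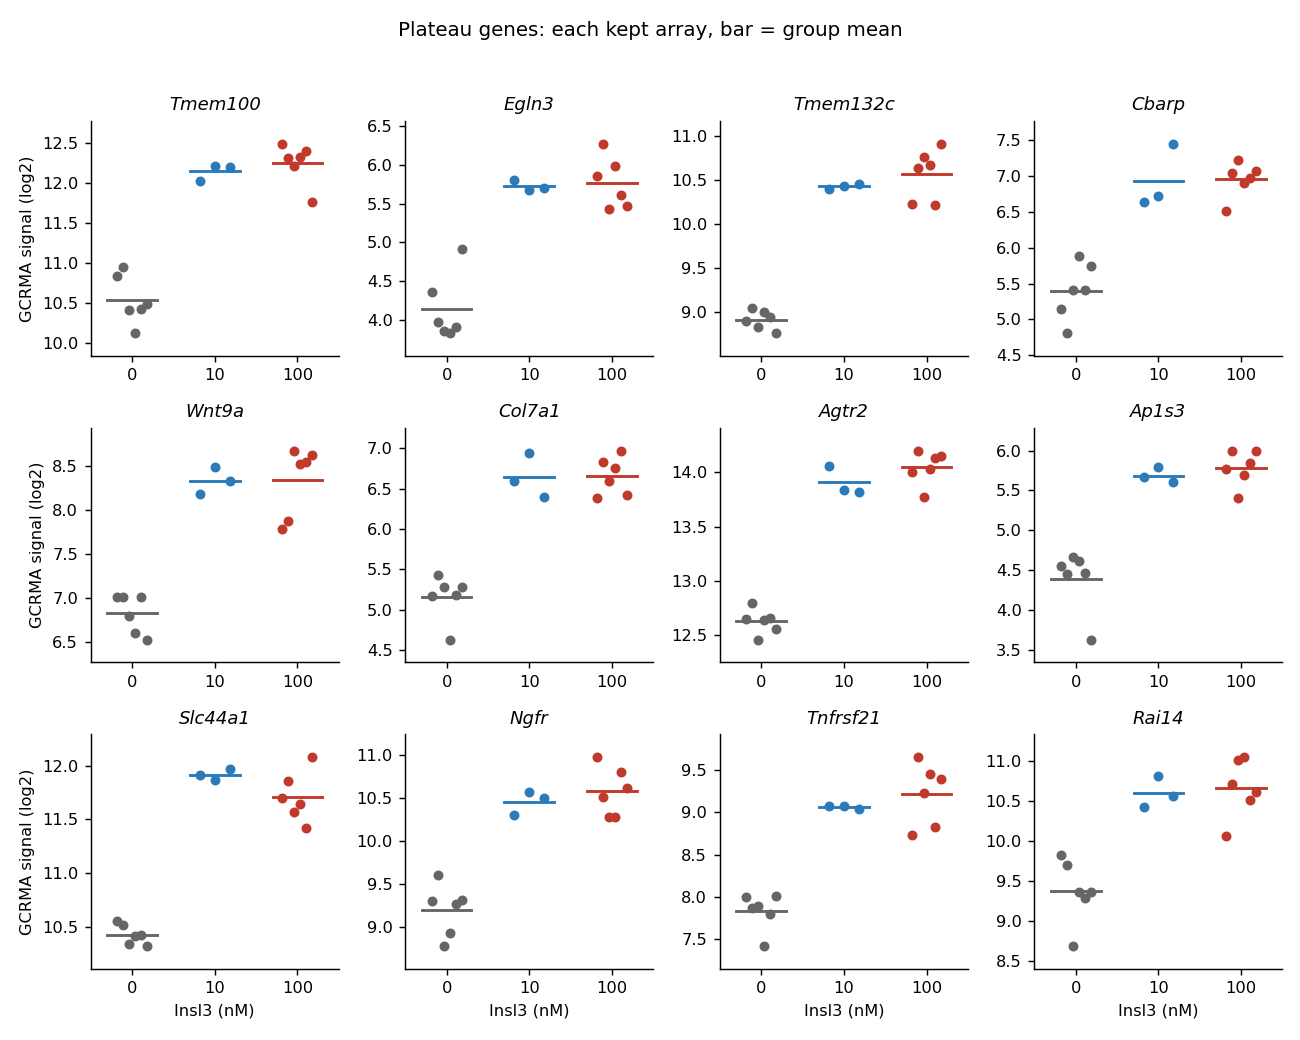
Log2 GCRMA signal in each kept array at 0, 10 and 100 nM Insl3 for the 12 plateau genes of largest response, with the bar at the group mean. The 10 nM and 100 nM arrays overlap and lie above every control array in all 12 genes, for example 13.77 to 14.20 for Agtr2 against 12.46 to 12.80 in controls.

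Most strong responders could not be placed. Of the 136 genes at least 2-fold above control, 6 were graded, 23 were at plateau and 107 were unresolved, and 97 had a higher mean at 100 nM than at 10 nM, with a median difference of 0.17. Pnoc, the nociceptin precursor, rose 48.1-fold at 10 nM and 53.8-fold at 100 nM, and its dose difference of 0.16 had an interval from -0.97 to 1.30, too wide for the margin. The phosphodiesterase gene Pde10a (-0.01, interval -0.73 to 0.70) and the bone morphogenetic protein antagonist gene Chrdl2 (-0.24, interval -0.84 to 0.35) also had almost equal means with wide intervals. Col8a1, a short-chain collagen (0.86, adjusted p = 0.0514), Cldn5, a tight junction protein of endothelium (1.23, adjusted p = 0.0857), and the estrogen-responsive gene Greb1 (1.10, adjusted p = 0.300) were higher at 100 nM without passing the threshold. Among the 53 genes at least 2-fold below control 1 was graded, 5 were further from control at 10 nM, 2 were at plateau and 45 were unresolved.

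Genes that differed between doses without a called response were mostly low at 10 nM with 100 nM near control. Foxo1, a transcription factor restrained by insulin signalling, read 7.18 to 7.66 in controls, 6.06, 6.38 and 5.64 at 10 nM, and 6.82, 7.55 and 8.16 (lowest, median, highest) at 100 nM (1.45 ± 0.27 between doses, adjusted p = 0.0246). Rab27b, of the secretory pathway (2.08, adjusted p = 0.0337), Rab11fip2, of recycling endosomes (1.46, adjusted p = 0.0400), Axin2, a feedback inhibitor and target of Wnt signalling (1.06, adjusted p = 0.0360), Ccnd2, a D-type cyclin (0.94, adjusted p = 0.0347), and Igfbp3, an insulin-like growth factor binding protein (0.43, adjusted p = 0.0445), also had their lowest mean at 10 nM. All 6 lost the call without 10 nM replicate 3, with adjusted p between 0.193 and 0.293 at their highest when 1 array was left out. The second probe sets of Rab27b and Igfbp3 were not called.

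Read by pathway, no list held more than 2 genes called between doses, against 0.778% of all genes. Among 28 measured genes of the cyclic AMP response, 1 rose from 10 to 100 nM (Nr4a1) with a list median of 0.18. Against control, 11 were higher at 100 nM and 6 at 10 nM, beside 8.15% and 5.54% of all genes. These 2 counts are not a difference between doses, since the doses share the control arrays and differ in their number of arrays. The repressor gene Crem read 9.88, 10.68 and 11.36 as means of control, 10 nM and 100 nM (adjusted p between doses = 0.222) and Pde4d 4.72, 4.97 and 5.67 (adjusted p = 0.0826). Of 16 genes of the insulin-like growth factor system 2 rose, Irs2 and Igfbp3, with a median of 0.14. Of 29 limb and urogenital transcription factors 2 rose, Twist2 and Foxl2, with a median of 0.12. Prrx1, a mesenchymal homeobox gene on the same list, read 9.79, 8.62 and 9.70 (adjusted p = 0.0514).

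Of 32 Wnt pathway genes 2 were higher at 100 nM than at 10 nM, Lrp6 and Axin2, with a median of 0.02. The ligand genes Wnt4 (means 11.25, 12.74 and 13.09) and Wnt16 (7.50, 8.81 and 9.98) were not called between doses (adjusted p = 0.565 and 0.458). Of 29 genes of cholesterol and fatty acid synthesis none was called between doses, with a median of -0.13. At an unadjusted p under 0.05 there were 2, beside 2324 of all 18938 probe sets tested. Against control, 12 were higher at 100 nM and 15 at 10 nM, beside 8.15% and 5.54% of all genes. Srebf1, the transcription factor of this list, had means of 9.42, 10.40 and 10.24 and Insig1, a sterol sensor, 10.79, 11.47 and 11.40. Of 28 genes of endoplasmic reticulum folding none was called between doses (6 at an unadjusted p under 0.05, median 0.06), with 11 above control at 100 nM and 2 above at 10 nM. The difference between those 2 counts is not a difference between doses, since the doses share the control arrays and none of the genes was called between them.

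Lists of other cells and functions gave 0 called genes between doses by the same limma test for skeletal muscle (30 measured), smooth muscle (15), nerve (13), endothelium (12), adipocytes (10), mesenchyme (9), mesothelium and epithelium (8), collagens (33), hypoxia and glycolysis (29), ubiquitin and RNA handling (29), mitochondrial respiration (21), proteoglycans (19), fibroblast growth factor and Hedgehog signalling (16), Notch signalling (10), neurotrophic factors (10) and relaxin signalling (5). Their medians lay between -0.34 for mesothelium and epithelium and 0.06 for neurotrophic factors. At an unadjusted p under 0.05, 37 of the 269 members of these 16 lists differed, the collagen list holding 11 of them. Over all probe sets tested, 2324 of 18938 had such a p, so the 37 are not read as a property of these lists. One gene each was called among 37 genes of activin and bone morphogenetic protein signalling (Fst), 32 of axon guidance (Sema3a), 27 of matrix proteases and crosslinking (Loxl2), 44 of the cell cycle (Ccnd2), 16 of neuropeptides and natriuretic peptides (Nppc), 20 of steroid and retinoid signalling (Sgk1) and 2 of cartilage and bone (Sox6).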

How the data were processed

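The deposited values are log2 signals, 1 per probe set, that the authors obtained with GCRMA, per the submitters' processing notes. Its version, the genome build and whether normalization took in the set-aside arrays are not given in the sources used here. RNA was labelled from 150 ng with a 3′ kit and each replicate was hybridised to 1 array, per the labels' protocols. About 30% of values per array lie at a shared floor near 2.1, so changes that start there are compressed. Of 31099 probe sets, 57 manufacturer controls were left out, and 18938 were above 2.285 (the 40th percentile of all values) in at least 3 of 15 kept arrays. Gene names come from the platform annotation (20832 probe sets with 1 gene, 436 with several, left unnamed).

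The 3 groups were fitted together with limma 3.58.1 in R 4.3.3 (lmFit, eBayes, 2-sided, Benjamini-Hochberg adjustment), on simulated data first. Arrays number 3 at 10 nM, which limits precision. Named genes were the 12 largest rises and falls, the 12 largest of each class, and up to 4 called members of each of 32 lists, filled to 2 by response. The members and lists were chosen with earlier results of these data known. Alternatives were other filters, normalization, eBayes settings, array subsets, blocks and margins.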

Additional observations from a re-analysis of the deposited data

Results flagged for a closer look

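Of 198 groups of 6 arrays examined (99 named genes, control and 100 nM), 13 held an array far from the other 5, where chance gives about 1 in 20. Control replicate 6 was low for Tbc1d12 (7.39), Ap1s3 (3.63) and Twist1 (9.10) and high for Foxl2 (4.25) and Sdc2 (10.09). Control replicate 4 was low for Col7a1 (4.63), Tnfrsf21 (7.42) and Uchl1 (8.08), control replicate 1 low for Tuba4a (11.00), and control replicate 5 high for Col8a1 (2.71). At 100 nM, replicate 3 was high for Rps6ka5 (7.61), replicate 6 low for Tmem100 (11.76) and replicate 5 high for Nrf1 (8.24).

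The set-aside 10 nM arrays, which enter 1 alternative fit and none of the reported comparisons, both lay above the highest control for 6 of the 9 graded genes that rose. The lower of the pair read 3.52 for S100g (highest control 2.72), 4.86 for Nppc (3.77), 3.18 for Nr4a1 (3.15), 5.23 for Foxl2 (4.25), 4.31 for Gda (3.00) and 9.39 for Fst (9.24). The share of all tested genes for which both set-aside arrays lay above every control was not counted. The 6 of 9 therefore has no background to be read against.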

How the results depend on the processing

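No alternative turned the direction of any of the 41 named genes called between doses. Of the 58 named genes without a call, 27 changed sign in at least 1. The 41 were picked for a called difference, the 58 include plateau genes with a small one, and the alternatives reuse most of the same arrays. This contrast therefore follows from the choice of genes and tests nothing. The causes of the changes in counts were not tested. Counts of probe sets are given in the order dose difference, Insl3 response, graded, further from control at 10 nM, and plateau, and were 271, 2980, 26, 158 and 39 as reported. Leaving out 1 array at a time they ranged over 3 to 619, 2209 to 3560, 2 to 46, 1 to 382 and 16 to 45. The lowest dose-difference count came without 10 nM replicate 3. With only the 10 and 100 nM arrays fitted, 3 probe sets differed between doses, 2 of them among the 271. Adding the set-aside arrays gave 1861 responses and 78 further from control at 10 nM. Using replicates 1 to 3 gave 562, 1381, 15, 393 and 27, and replicates 1, 2 and 6 gave 134, 544, 6, 74 and 17. A term for replicates 1, 2 and 6 against 3, 4 and 5 gave 531, 3362, 83, 298 and 50. The erythroid covariate gave 86, 1260, 22, 8 and 11. No filter gave 22 dose differences, 6 graded and 11 further from control at 10 nM. These counts include probe sets that were not among the 271. Of the 271, 188 were called with replicates 1 to 3, 70 with replicates 1, 2 and 6, 43 with the erythroid covariate and 21 with no filter. Array weights gave 1199, 4160, 155, 535 and 76. Keeping only replicate 3 of the 10 nM arrays, chosen after seeing the data, gave 62 (27 higher and 35 lower at 100 nM, against 234 and 37), 1804, 9, 15 and 4. Plateau counts were 1 with a narrower margin, 143 with 2-fold, 84 with 50% of the response as margin and 1711 without the 2-fold minimum. A stricter filter, quantile normalization and trend with robust eBayes stayed within 1.5 times. The replicate number as a block gave 429 dose differences, with 216 of the 271 among them, 39 graded and 303 further from control at 10 nM. Same-number pairs correlated weakly, 6 of 12 above 0.1 (range -0.071 to 0.199), and 3 of 12 were best matched to their own number. The division of replicates 1, 2 and 6 from 3, 4 and 5 was nevertheless shared by the control and 100 nM cultures. Whether the numbers pair the samples is therefore not settled. Of 41 named calls, 32 held under the block, 23 with the set-aside arrays, 10 with the erythroid covariate, 5 with no filter and 1 without 10 nM replicate 3.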
